A study of Mus musculus with 4 samples.

Results

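The collagen genes were followed across Pla2g2f genotype and calcium in cultured mouse keratinocytes, the main cell type of the epidermis. They were chosen by name: every gene called Col, a type number, the letter a and a chain number on the array, apart from Col17a1, a transmembrane component of hemidesmosomes. The rule gave 42 genes of the 30342 genes or targets on the array, read by 66 of 39429 probes. There were 11 fibrillar genes (types I, II, III, V, XI, XXIV and XXVII), 9 basement membrane genes (types IV, VII, XV and XVIII) and 22 genes of other types. The cells came from the skin of newborn C57BL/6 mice, opened with 0.05% collagenase A, an enzyme that digests collagen, and were grown for 3 days. The 4 groups were Pla2g2f+/+ and Pla2g2f-/- cells, each kept for 48 h with or without 1 mM CaCl2, and each was measured on 1 single-colour array. RNA was pooled from the cells of 6 mice per genotype. The labels do not give the deleted part of Pla2g2f, which encodes a secreted phospholipase A2, nor the cells that the whole-skin digest kept beside keratinocytes. Genotype, pool and array therefore cannot be told apart, no difference below has a replicate check, and none has a p-value.

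Collagens are proteins of 3 chains wound into a triple helix, in which glycine returns at regular short intervals. Fibrillar collagens assemble into the ropes of the dermis and are made mainly by fibroblasts. Type IV collagen forms the sheet of the basement membrane on which basal keratinocytes sit, and type VII collagen anchors that sheet to the dermis. The other types form beaded filaments, decorate the surface of fibrils, build networks or span the cell membrane.

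The glycine repeat can be read in the array probes themselves. Among probes of 60 bases, 6 of 39429 (0.0152%) carried GGN, the glycine codon, at every ninth base with 6 codons in a row, and 2 of these were collagen probes. They belonged to Col15a1 and Col25a1, genes at the upper and the lower end of the genotype differences described below, and are shown for that reason with the glycine codons in capitals. The positions are those of mm9 as the scanner files give them, chr4:47283786-47283845 for Col15a1 and chr3:130270497-130270556 for Col25a1. The files give no exon or intron for them.

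Col15a1: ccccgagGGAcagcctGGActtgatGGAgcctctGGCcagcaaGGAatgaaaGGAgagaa

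Col25a1: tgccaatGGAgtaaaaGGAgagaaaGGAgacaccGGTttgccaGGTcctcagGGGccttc

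The promoters shown next belong to Col4a1 and Col4a2, which differed between genotypes side by side, and to Col1a2, a chain of the main dermal collagen. Each window runs from 250 bases before to 50 bases after a start of the gene and comes from RefSeq (GRCm38.p6). Capitals mark the CCAAT box, searched as CCAAT and, for the opposite strand, ATTGG. Col4a1 lies at chr8:11312777-11313076 on the minus strand and Col4a2 at chr8:11312555-11312854 on the plus strand. They are transcribed away from each other, their annotated ends overlap by 85 bases, and their windows share 78 bases. The Col4a1 window is placed on a start inside the annotated gene, whose outer end is 11312889. The overlap of the ends and that of the windows therefore use different Col4a1 starts. Col1a2 lies at chr6:4505368-4505667 on the plus strand.

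Col4a1: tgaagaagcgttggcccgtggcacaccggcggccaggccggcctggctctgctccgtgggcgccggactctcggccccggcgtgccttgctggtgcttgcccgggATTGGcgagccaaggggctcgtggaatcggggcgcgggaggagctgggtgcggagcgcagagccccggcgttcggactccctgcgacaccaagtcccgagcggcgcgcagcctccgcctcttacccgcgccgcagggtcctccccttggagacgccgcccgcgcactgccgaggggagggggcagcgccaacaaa

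Col4a2: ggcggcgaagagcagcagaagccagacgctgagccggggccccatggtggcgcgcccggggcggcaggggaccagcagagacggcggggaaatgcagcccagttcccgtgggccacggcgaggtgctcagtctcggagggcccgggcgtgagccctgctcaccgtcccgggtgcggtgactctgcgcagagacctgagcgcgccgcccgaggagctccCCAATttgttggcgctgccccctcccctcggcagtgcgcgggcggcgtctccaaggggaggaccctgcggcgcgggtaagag

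Col1a2: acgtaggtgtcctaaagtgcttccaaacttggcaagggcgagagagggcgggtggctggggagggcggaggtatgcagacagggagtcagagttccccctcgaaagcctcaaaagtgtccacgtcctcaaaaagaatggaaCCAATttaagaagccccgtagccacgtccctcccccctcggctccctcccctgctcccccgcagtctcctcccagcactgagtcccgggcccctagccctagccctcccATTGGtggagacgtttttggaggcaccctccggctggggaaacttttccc

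The Col4a1 window held 1 box, 145 bases before the start on the opposite strand, and the Col4a2 window held 1, 32 bases before the start. The Col1a2 window held 2, of which 1 lay 109 bases before the start. Of 37 windows of 34 collagen genes, 12 held a CCAAT box (32.4%), against 37.4% of all 32851 windows of this length. The box was in 3 of 8 windows of fibrillar genes, 5 of 9 of basement membrane genes and 4 of 20 of the other types. A TATA box, searched as TATAAA and TTTATA, was in 10.8% of the collagen windows and 13.6% of all windows. A match describes the letters of the window only.

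A signal well above background was found on all 4 arrays for 27 of the 42 genes, on some arrays for 5 and on none for 10. The 10 undetected genes were Col6a4, Col6a5, Col6a6, Col9a3, Col10a1, Col13a1, Col19a1, Col22a1, Col24a1 and Col28a1, so that 9 of the 22 other types had no signal well above background. Levels are given as log2 of the signal over its array's 75th percentile, and each gene is read from its brightest probe. Differences are given as log2 and as fold, and genes are counted at 2-fold. Where 1 array of a pair was not well above background the difference is a lower bound, written "at least". The arrays were alike in depth, with 67.0% to 68.6% of probes well above background and no saturated spot. The scanner's own error for a difference between arrays had a median of 0.21 log2 over the collagen genes. It covers the spots and not the spread between cultures.

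One collagen value had to be left out before any comparison. The only spot of Col1a1 on the array of -/- cells without calcium was marked as non-uniform by the scanner software, 1 of 2 such spots among 43020 on that array. Its pixels varied by 1.38 times their mean, against 0.0245 to 0.173 on the other arrays. Its signal was 2083 intensity units, against 49558, 49052 and 127314 on the others. The authors' value table still carries this spot, as a ratio of 0.721 beside 18.8, 17.9 and 38.6. With it kept, Col1a1 would stand 26.1-fold lower in -/- cells without calcium and 53.5-fold higher with calcium than without in -/- cells. The flag is the reason why Col1a1 has no value there in what follows.

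The median collagen gene was higher in -/- than in +/+ cells in both calcium states, under every scaling tried. Without calcium, 8 of the 31 genes compared were at least 2-fold higher in -/- cells, against 4.65% of all 21346 genes compared, and 2 were at least 2-fold lower, against 4.32%. The median collagen difference was 0.51 (1.42-fold), beside -0.18 over all genes, with 22 genes above 0 and 9 below. With calcium, 15 of 32 were at least 2-fold higher, against 6.56% of 21565 genes, and 1 was lower, against 3.05%. The median was then 0.65 (1.57-fold), beside -0.16 over all genes. Bounds entered these counts, that of Col15a1 in both states and that of Col11a1 with calcium. Among genes measured on both arrays of a pair, 7 of 29 collagen genes were at least 2-fold higher without calcium, against 4.24% of 19578 genes, and 13 of 29 with calcium, against 5.84% of 19800. In these cultures, more cells of a collagen-making type and more RNA per cell cannot be told apart. The genotype comparisons without and with calcium use different arrays, and the labels do not state whether the cultures of a genotype came from the same pool.

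Of the 31 genes compared in both states, 8 were at least 2-fold higher in both: Col3a1, Col4a2, Col5a3, Col6a2, Col6a3, Col11a1, Col14a1 and Col15a1. That is 25.8% of the collagen genes, beside 4.12% of 20700 genes compared in both states. A further 6 passed 2-fold with calcium only (Col1a2, Col4a1, Col5a1, Col5a2, Col6a1 and Col23a1), and their differences without calcium were between 0.80 and 0.99 log2. The share of all genes that passed with calcium only was 2.43%. No collagen gene passed without calcium only, against 0.517% of all genes, and Col25a1 was at least 2-fold lower in both, against 1.11%. Beyond the scanner error, 17 of 29 measured collagen genes were higher and 4 lower without calcium, against 17.6% and 45.2% of all genes. With calcium 16 of 29 were higher and 8 lower, against 21.1% and 43.8%.

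**Figure D1:**
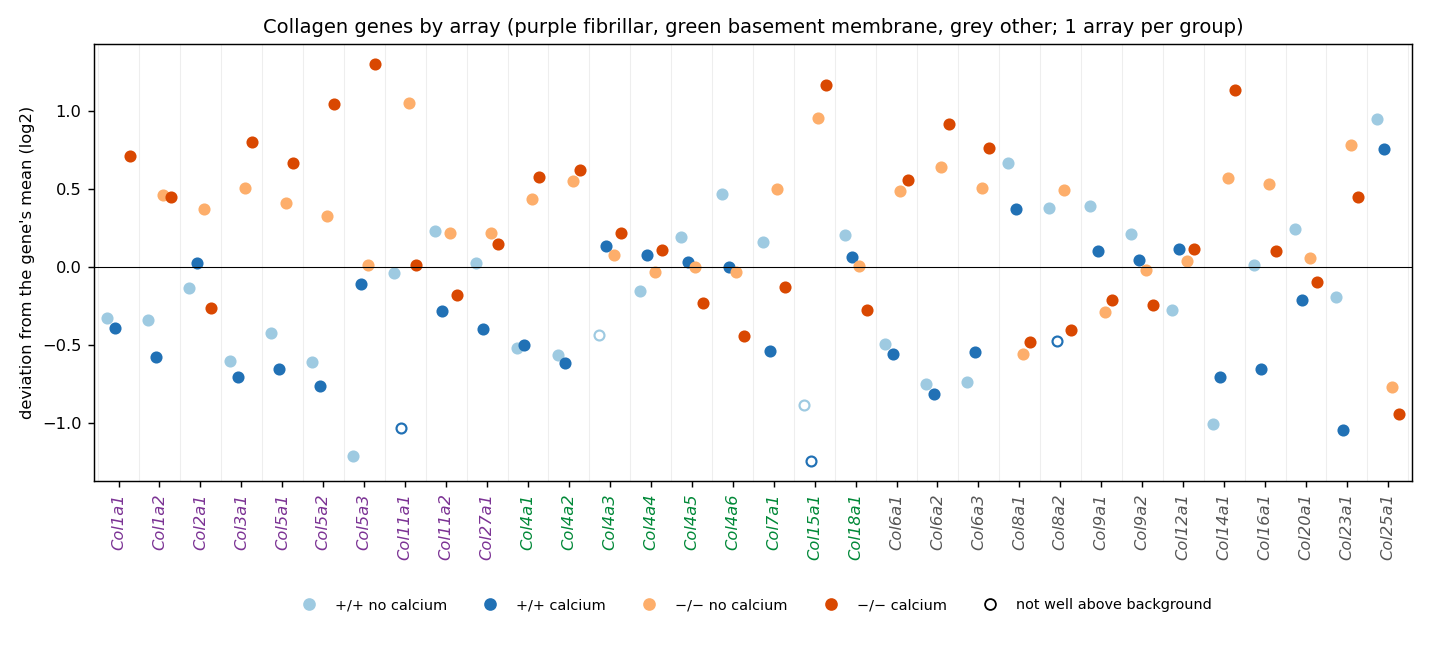
Each point is the deviation of a collagen gene's log2 level on 1 array from that gene's mean over the arrays, for the 32 genes well above background on at least 1 array. Open points were not well above background, and the flagged Col1a1 spot is left out. For Col3a1, Col6a1 and Col14a1 both -/- arrays lie above both +/+ arrays, and for Col25a1 both lie below. The arrays of a genotype are not replicates, and the share of all genes separated in this way is not given.

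Fibrillar genes had the highest median of the groups in both states. Without calcium 3 of 9 were at least 2-fold higher in -/- cells, against 4.65% of all genes, and their median was 0.83 (1.78-fold). With calcium 7 of 10 were, 1 of them by a bound, against 6.56% of all genes. The fibrillar median was then 1.07 (2.11-fold). Of the fibrillar genes compared, none was at least 2-fold lower in either state, against 4.32% and 3.05% of all genes. The difference between the fibrillar genes and the other groups was not tested.

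Col1a1 encodes the main chain of type I collagen, the bulk of dermal fibrils (probe at chr11:94813115-94813174, mm9). Its level was 4.23 without and 4.16 with calcium in +/+ cells, and 5.27 in -/- cells with calcium. Only the calcium-treated arrays could be compared, and -/- cells were 2.15-fold higher (1.11). Col1a2, its partner chain (probe at chr6:4490619-4490678, mm9), stood at 5.32 and 5.08 in +/+ cells and at 6.12 and 6.11 in -/- cells, without and with calcium. That is 1.74-fold higher without calcium (0.80) and 2.04-fold with calcium (1.03). Both -/- arrays lay above both +/+ arrays. The arrays of a genotype differ in calcium and are not replicates. The share of all genes separated in this way, here and for the genes below, is not given.

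Col3a1 encodes type III collagen, which is abundant in young skin. Its level was 4.05 and 3.94 in +/+ cells and 5.16 and 5.45 in -/- cells, without and with calcium. The genotype difference was 2.16-fold without calcium (1.11) and 2.85-fold with calcium (1.51). Col5a2, the next collagen gene beside it on chromosome 1, belongs to type V, which is built into type I fibrils and limits their width. Its level was -0.97 and -1.12 in +/+ cells and -0.03 and 0.69 in -/- cells. It was 1.91-fold higher in -/- cells without calcium (0.94) and 3.50-fold with calcium (1.81), the highest measured value among the fibrillar genes in that state.

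The other type V chains differed in the same direction. Col5a1 stood at 2.20 and 1.97 in +/+ cells and at 3.04 and 3.29 in -/- cells, without and with calcium, 1.78-fold apart without calcium (0.83) and further apart with calcium (1.32). Col5a3 stood at 0.48 and 1.58 in +/+ cells and at 1.70 and 2.99 in -/- cells, 2.33-fold and 2.66-fold apart (1.22 and 1.41). Its -/- array without calcium lay only slightly above its +/+ array with calcium, and this chain was also higher with calcium in both genotypes.

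The fibrillar genes best known from cartilage had low levels and differed from one another. Col11a1 was at -5.19 in +/+ cells without calcium, not well above background with calcium (-6.19), and at -4.11 and -5.15 in -/- cells. It was 2.12-fold higher in -/- cells without calcium (1.09) and at least 2.06-fold with calcium (1.04), while normexp background correction gave 0.52 and 0.38, both below 2-fold. Col11a2, its partner chain, differed by -0.01 and 0.10 between genotypes. Col2a1, the main collagen of cartilage, differed by 0.51 without calcium and by -0.29 with calcium, and the latter turned to 0.27 with the arrays scaled to basal keratinocyte genes. Col27a1 differed by 0.19 and 0.55, and Col24a1 was not detected. Of 7 chondrocyte markers, Matn1, Matn3, Hapln1 and Cnmd were not well above background on any array, while Acan and Sox9 were on all 4 and Comp on both -/- arrays.

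**Figure D2:**
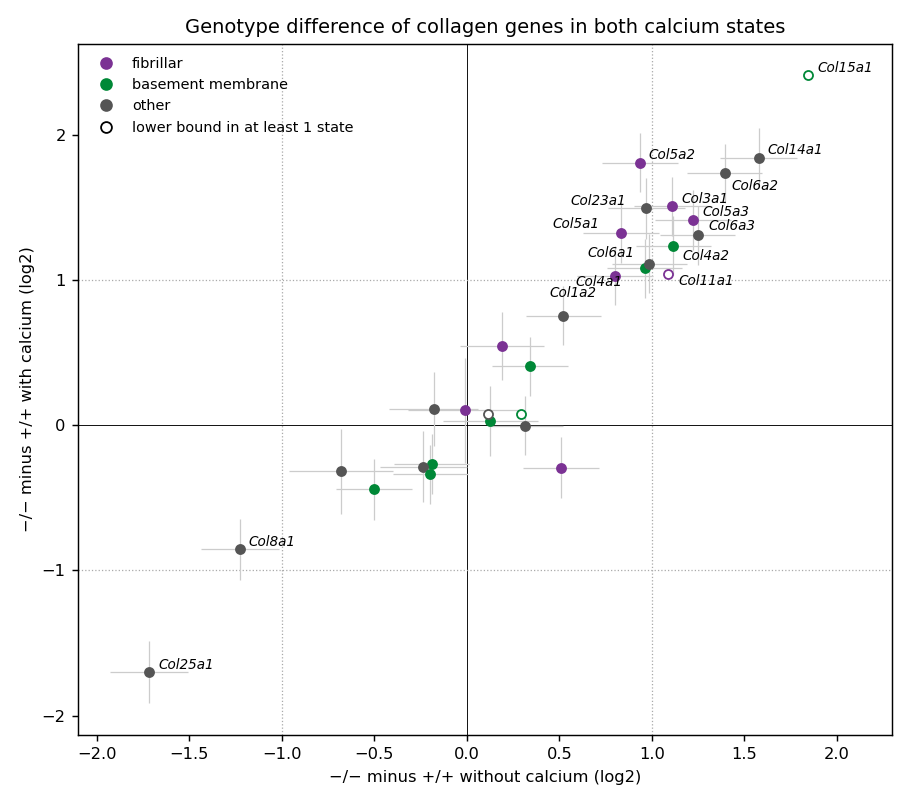
Each point is 1 of the 31 collagen genes compared in both states, with its -/- minus +/+ difference (log2) without calcium on the x axis and with calcium on the y axis, and bars for the scanner error of the spots. The dotted lines mark 2-fold. The 8 genes at least 2-fold higher in both states lie in the upper right corner and Col25a1 in the lower left.

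The basement membrane genes split by chain. Their median difference was 0.29 without calcium and 0.08 with calcium. Of 9 genes, 2 were at least 2-fold higher without calcium and 3 with calcium, Col15a1 by a bound each time. None was at least 2-fold lower. Over all genes the shares were 4.65% and 6.56% higher and 4.32% and 3.05% lower, without and with calcium. In type IV collagen, the chains of 6 genes join into networks of set composition. Chains 1 and 2, from Col4a1 and Col4a2, form the common network, and chains 5 and 6 belong to a network of the skin basement membrane.

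Col4a1 was read from 10 spots of 1 probe. Its level was 3.11 and 3.13 in +/+ cells and 4.07 and 4.22 in -/- cells, without and with calcium, with an SD of 0.03 to 0.06 between the spots of an array. That spread is technical and within 1 array. The difference was 1.95-fold without calcium (0.96) and 2.12-fold with calcium (1.08). Col4a2 stood at 2.51 and 2.46 in +/+ cells and at 3.63 and 3.70 in -/- cells, 2.17-fold and 2.36-fold apart (1.12 and 1.24). For both genes the arrays of a genotype differed by at most 0.14. Both -/- arrays lay above both +/+ arrays, again without a share of all genes to set beside this.

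Chains 5 and 6 did not share this difference. Col4a5 differed by -0.19 and -0.27 between genotypes and Col4a6 by -0.50 and -0.44, without and with calcium. Scaling to basal keratinocyte genes turned the sign of 3 of these 4 values, to 0.07 and 0.30 for Col4a5 and to 0.12 for Col4a6 with calcium. A scaling constant per array cancels in the gap between the pairs. The mean difference of Col4a1 and Col4a2 exceeded that of Col4a5 and Col4a6 by 1.38 log2 (2.61-fold) without calcium and by 1.51 (2.85-fold) with calcium. Col4a3 and Col4a4, known from kidney and lung, had low levels and differed by at least 0.29 and by 0.13 without calcium and by 0.08 and 0.03 with calcium.

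Each type IV pair is encoded head to head in RefSeq GRCm38, Col4a1 with Col4a2 on chromosome 8, Col4a3 with Col4a4 on chromosome 1 and Col4a5 with Col4a6 on chromosome X. The gene ends overlap by 85 bases in the pair shown above, while 1274 bases lie between Col4a5 and Col4a6. Within a pair the genotype differences had the same sign in both states, but scaling to basal keratinocyte genes left Col4a5 at 0.07 and Col4a6 at -0.24 without calcium, and normexp correction turned the small values of Col4a3 and Col4a4 with calcium to -0.11 and -0.01.

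**Figure D3:**
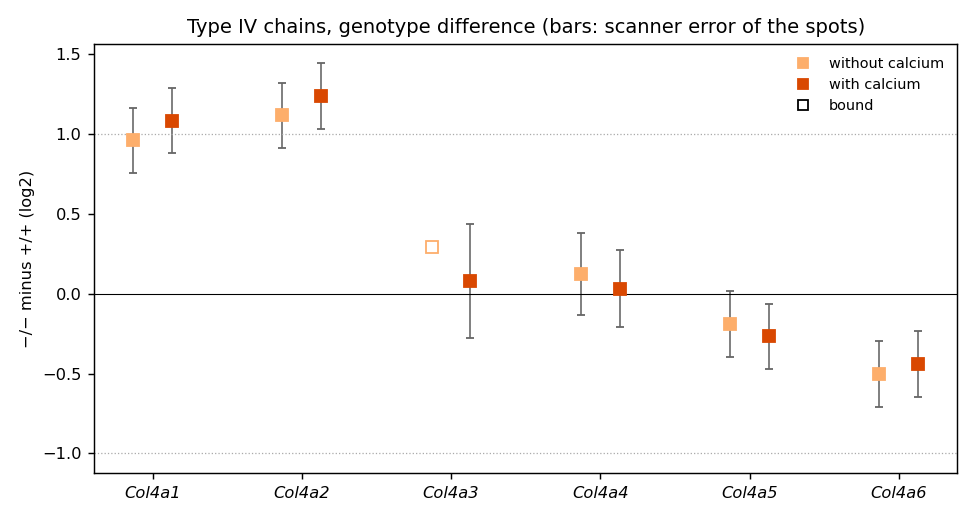
The -/- minus +/+ difference (log2) of the 6 type IV collagen genes without and with calcium, with bars for the scanner error of the spots and an open square for a bound. Col4a1 and Col4a2 lie between 0.96 and 1.24, and Col4a5 and Col4a6 between -0.19 and -0.50.

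The remaining basement membrane genes lay further apart. Col7a1, the anchoring fibril collagen that keratinocytes themselves make, stood at 4.18 and 3.48 in +/+ cells and at 4.52 and 3.89 in -/- cells, without and with calcium. It was 1.27-fold and 1.33-fold higher in -/- cells (0.34 and 0.41), and lower with calcium in both genotypes. Col18a1, whose C-terminal fragment is endostatin, stood at 5.44 and 5.30 in +/+ cells and at 5.25 and 4.96 in -/- cells. It differed by -0.20 and -0.34, and scaling to basal keratinocyte genes turned these to 0.06 and 0.23.

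Col15a1, a collagen close to type XVIII that sits beneath the basement membrane of vessels and muscle, had the highest genotype difference of the collagen genes compared under this scaling. It was not well above background in +/+ cells (-5.49 and -5.84) and stood at -3.64 and -3.43 in -/- cells, without and with calcium. It was at least 3.59-fold higher without calcium (1.84) and at least 5.31-fold with calcium (2.41), while normexp correction, which adds a fixed offset, gave 0.78 and 1.16, below the 1.37 and 1.77 of Col6a2 under that correction. Its other probes, one of them the glycine-repeat probe shown above, were also dim in +/+ cells and well above background in -/- cells.

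Among the other types, Col6a2, Col6a3 and Col14a1 were at least 2-fold higher in -/- cells in both states. In all, 13 of the 22 genes could be compared in each state. Without calcium their median was 0.32, with 3 at least 2-fold higher and 2 lower, against 4.65% and 4.32% of all genes. With calcium it was 0.11, with 5 higher and 1 lower, against 6.56% and 3.05%. The median without calcium turned to -0.080 when all probes of a gene were averaged.

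Type VI collagen forms beaded filaments around cells, and all its main chains were higher in -/- cells. Col6a1 stood at 4.37 and 4.31 in +/+ cells and at 5.36 and 5.43 in -/- cells, without and with calcium, 1.98-fold and 2.16-fold apart (0.99 and 1.11). Col6a2 stood at 1.35 and 1.29 in +/+ cells and at 2.75 and 3.03 in -/- cells, 2.63-fold and 3.33-fold apart (1.39 and 1.73). Col6a3 stood at 3.98 and 4.17 in +/+ cells and at 5.23 and 5.48 in -/- cells, 2.37-fold and 2.48-fold apart (1.25 and 1.31). In all of them both -/- arrays lay above both +/+ arrays, without a share of all genes to set beside this. A second Col6a2 probe gave 1.01 and 1.33. The genes of the later-found chains, Col6a4, Col6a5 and Col6a6, were not well above background.

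Col14a1 encodes a collagen of the fibril surface. Its level was -3.16 and -2.87 in +/+ cells and -1.59 and -1.03 in -/- cells, without and with calcium. It was 2.98-fold higher without calcium (1.58) and 3.58-fold with calcium (1.84). A dimmer probe of the same gene gave 0.52 and 0.83, the same direction at a smaller size. Col12a1, a closely related fibril-surface collagen, differed by 0.32 without calcium and by less than 0.01 with calcium. Col16a1, another of that class, was 1.44-fold and 1.69-fold higher by its brightest probe (0.52 and 0.75), while 1 of its dimmer probes gave -0.51 without calcium.

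The membrane-spanning collagens went in opposite directions. Col23a1 stood at -2.18 and -3.03 in +/+ cells and at -1.21 and -1.54 in -/- cells, without and with calcium, 1.96-fold and 2.82-fold apart (0.97 and 1.49). A second probe gave 1.42 with calcium and the dimmest gave -0.05. Col25a1, first known as a component of amyloid plaques, stood at -2.12 and -2.31 in +/+ cells and at -3.84 and -4.01 in -/- cells. It was 3.29-fold lower in -/- cells without calcium (-1.72) and 3.25-fold lower with calcium (-1.70). Its glycine-repeat probe gave -1.08 and -0.92, again lower in -/- cells. Col13a1, also membrane-spanning, was not detected.

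Col8a1, a network collagen of vessels and the eye, was the other gene at least 2-fold lower in -/- cells without calcium. Its level was -2.63 and -2.93 in +/+ cells and -3.86 and -3.78 in -/- cells, without and with calcium. It was 2.34-fold lower without calcium (-1.23) and 1.81-fold lower with calcium (-0.86). Its partner Col8a2 differed by 0.11 without calcium and at least 0.08 with calcium by its brightest probe. Normexp correction turned the 0.11 to -0.42, and a second Col8a2 probe gave -0.71 without and 0.29 with calcium. Col9a1 and Col9a2, fibril-surface collagens of cartilage, differed by -0.68 and -0.23 without calcium and by -0.32 and -0.29 with calcium, and scaling to basal keratinocyte genes turned all but the first, to 0.02, 0.25 and 0.28. A second Col9a1 probe went the other way. It was not well above background in +/+ cells (-6.08 and -6.65) and was in -/- cells (-5.68 and -5.04), without and with calcium. Col20a1 differed by -0.18 and 0.11.

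Calcium, the usual switch to keratinocyte differentiation in culture, came with 2-fold differences in shares of the collagen genes near those of all genes. In +/+ cells 1 of 31 genes was at least 2-fold higher with calcium, against 2.47% of 21130 genes, and 0 were lower, against 1.01%. In -/- cells 1 of 31 was higher, against 2.99% of 21428 genes, and 1 was lower, against 0.602%. The collagen medians were -0.16 and 0.07, beside -0.07 and -0.03 over all genes. Scaling to basal keratinocyte genes moved the collagen medians to 0.18 and 0.71, beside 0.27 and 0.62 over all genes. Each calcium response shares its arrays with the genotype comparisons, so these values are not independent of those above.

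Col5a3 was the gene at least 2-fold higher in both genotypes, 2.15-fold in +/+ cells and 2.45-fold in -/- cells. Col11a1 was 2.06-fold lower with calcium in -/- cells (-1.04) and at least 1.99-fold lower in +/+ cells, while normexp background correction gave -0.64 and -0.50. Col8a2, another gene with a bound in +/+ cells, was at least 1.81-fold lower in +/+ cells and 1.86-fold lower in -/- cells, and the latter turned to 0.26 log2 under normexp correction. Its second probe was 1.58-fold higher with calcium in -/- cells (0.66), opposite to the brightest probe, and gave -0.33 in +/+ cells. Col7a1 was lower in both genotypes, by 1.62-fold in +/+ cells (-0.70) and by 1.55-fold in -/- cells (-0.63), and the -/- value turned to 0.01 under scaling to basal keratinocyte genes. Col16a1 was 1.59-fold and 1.35-fold lower (-0.66 and -0.43), and Col23a1 1.81-fold and 1.26-fold lower (-0.86 and -0.33), with the -/- values at 0.21 and 0.31 under the same scaling.

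**Figure D4:**
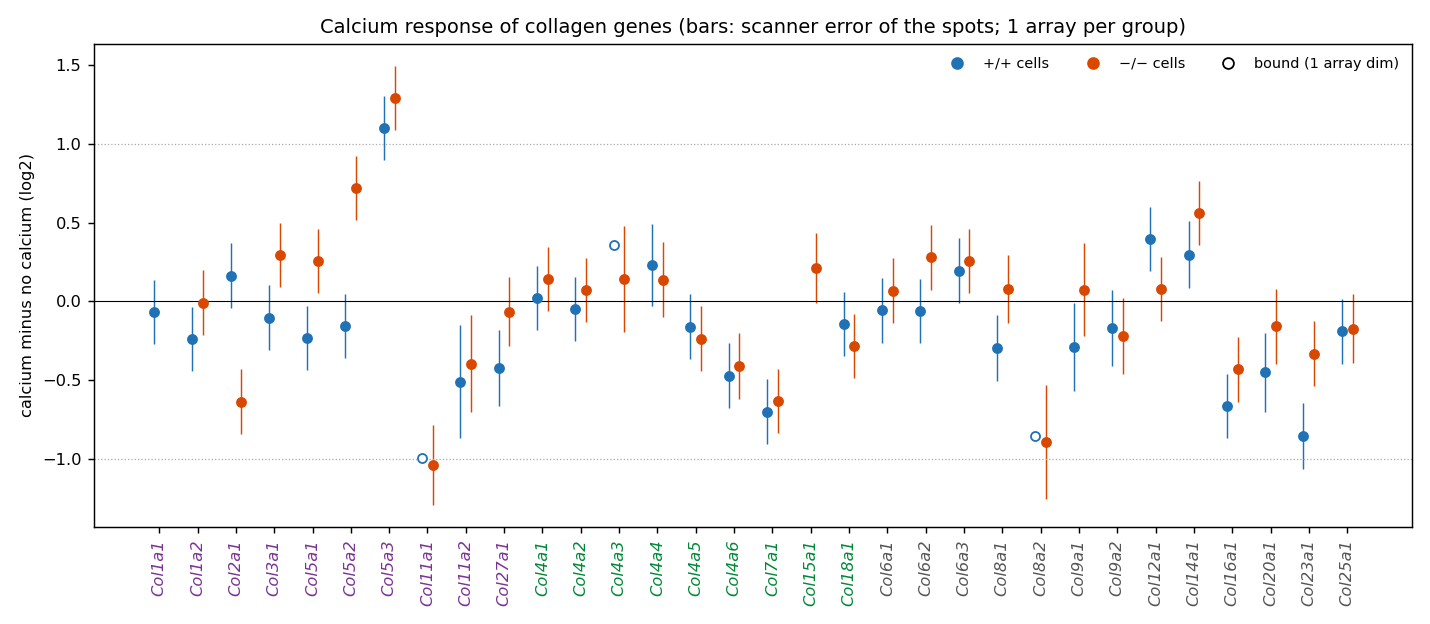
The calcium response (log2, with calcium minus without) of each collagen gene in +/+ and -/- cells, with bars for the scanner error of the spots, open points for bounds and dotted lines at 2-fold. Col5a3 lies above 1 in both genotypes, and Col1a1 has a value in +/+ cells only.

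The calcium responses of the genotypes were then set against each other. Of the 27 genes detected on all 4 arrays, 12 were lower with calcium in both genotypes, 6 higher in both, and 8 lower in +/+ and higher in -/- cells. The shares of all 19227 such genes were 42.3%, 23.1% and 19.7%. Col2a1 was the 1 collagen gene higher in +/+ and lower in -/- cells, against 14.9% of all genes. These signs depend on the scaling: with basal keratinocyte genes as the reference, 22 of 31 collagen genes were above 0 in +/+ and 29 of 31 in -/- cells. That reference also put the median of all genes above 0, at 0.27 in +/+ and 0.62 in -/- cells. The response of -/- cells exceeded that of +/+ cells by 2-fold for 0 of the 27, against 1.91% of 19227 genes, and fell short of it by 2-fold for 0, against 0.629%. The median of this difference between responses was 0.13 over collagen genes, 0.29 over the fibrillar ones and 0.02 over all genes. The widest gaps were in Col5a2 (0.87, with -0.15 in +/+ and 0.72 in -/- cells) and in Col2a1 (-0.80, with 0.16 and -0.64).

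The genes that make, fix and clear collagen were followed next, in lists chosen by function. The enzymes and chaperones that modify collagen chains in the endoplasmic reticulum had medians of 0.02 and 0.28 between genotypes without and with calcium. Of 20 compared, 0 were at least 2-fold higher or lower without calcium, against 4.65% and 4.32% of all genes, and 2 were higher with calcium, against 6.56%. These were the lysyl hydroxylase Plod1 (1.81-fold higher without calcium and 2.65-fold with calcium) and P3h3 (2.03-fold with calcium). The prolyl 3-hydroxylase P3h2 was 1.94-fold and 1.93-fold lower, the prolyl 4-hydroxylase subunit P4ha3 1.64-fold lower without and 1.14-fold higher with calcium, and the transcription factor Creb3l1 1.51-fold and 1.46-fold higher.

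The genes that trim procollagen and cross-link fibrils had medians of 0.48 and 0.66. Of the 11 compared without calcium 1 was at least 2-fold higher, beside 4.65% of all genes, and of the 12 with calcium 4 were, beside 6.56%. The procollagen N-proteinase Adamts2 was 2.52-fold and 2.86-fold higher, and the proteinase enhancer Pcolce 1.97-fold and 2.32-fold. The lysyl oxidases Loxl1 and Loxl2 were 1.89-fold and 1.64-fold higher without calcium and 2.01-fold and 2.17-fold with calcium. The lysyl oxidase Lox went the other way, by -0.27 log2 without calcium and -0.18 with calcium. Loxl3 differed by 0.13 and 0.19 and Loxl4 by 0.48 and 0.70, without and with calcium. Tll1, a procollagen C-proteinase, was 1.78-fold and 1.54-fold higher, and was 2.20-fold lower with calcium than without in -/- cells.

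The proteins that bind collagen fibrils or the basement membrane network had the highest medians of these lists, 0.94 and 1.27, with 5 and 9 of 14 genes at least 2-fold higher, against 4.65% and 6.56% of all genes. Asporin (Aspn), a small leucine-rich proteoglycan, was 8.79-fold and 15.9-fold higher in -/- cells. Tenascin X (Tnxb) was 4.83-fold and 10.2-fold higher, nidogen 2 (Nid2), a basement membrane linker, 3.39-fold and 4.36-fold, and osteoglycin (Ogn) 2.61-fold and 3.48-fold. Ogn was also 2.18-fold lower with calcium in +/+ cells.

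Collagen receptors had medians of 0.04 and 0.03. Of 9, 0 were at least 2-fold higher or lower, beside 4.65% and 4.32% of all genes without calcium and 6.56% and 3.05% with calcium. Among them Lair1, an inhibitory leukocyte receptor, was 1.95-fold lower without calcium (-0.96) and lower by less with calcium (-0.26), Adgrg1 1.75-fold and 1.77-fold higher, the integrin chain Itga1 1.65-fold and 1.76-fold higher and the receptor kinase Ddr2 1.33-fold and 1.68-fold higher. The genes of collagen breakdown had medians of 0.53 and 0.92, with 1 of 9 at least 2-fold higher and 1 lower without calcium, beside 4.65% and 4.32% of all genes, and 2 higher with calcium, beside 6.56%. The gelatinase Mmp2 was 2.16-fold and 3.13-fold higher in -/- cells, the surface protease Fap was 2.60-fold higher with calcium, and the collagenase gene Mmp1b was 2.82-fold and 1.37-fold lower without and with calcium. The uptake receptor Mrc2 was 1.56-fold and 1.90-fold higher, and Mmp9 was 1.60-fold lower without and 1.21-fold higher with calcium. In -/- cells Mmp9, Mmp13 and Fap were 2.46-fold, 2.28-fold and 2.40-fold higher with calcium than without. Mmp1b was 2.23-fold lower with calcium in +/+ cells.

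**Figure D5:**
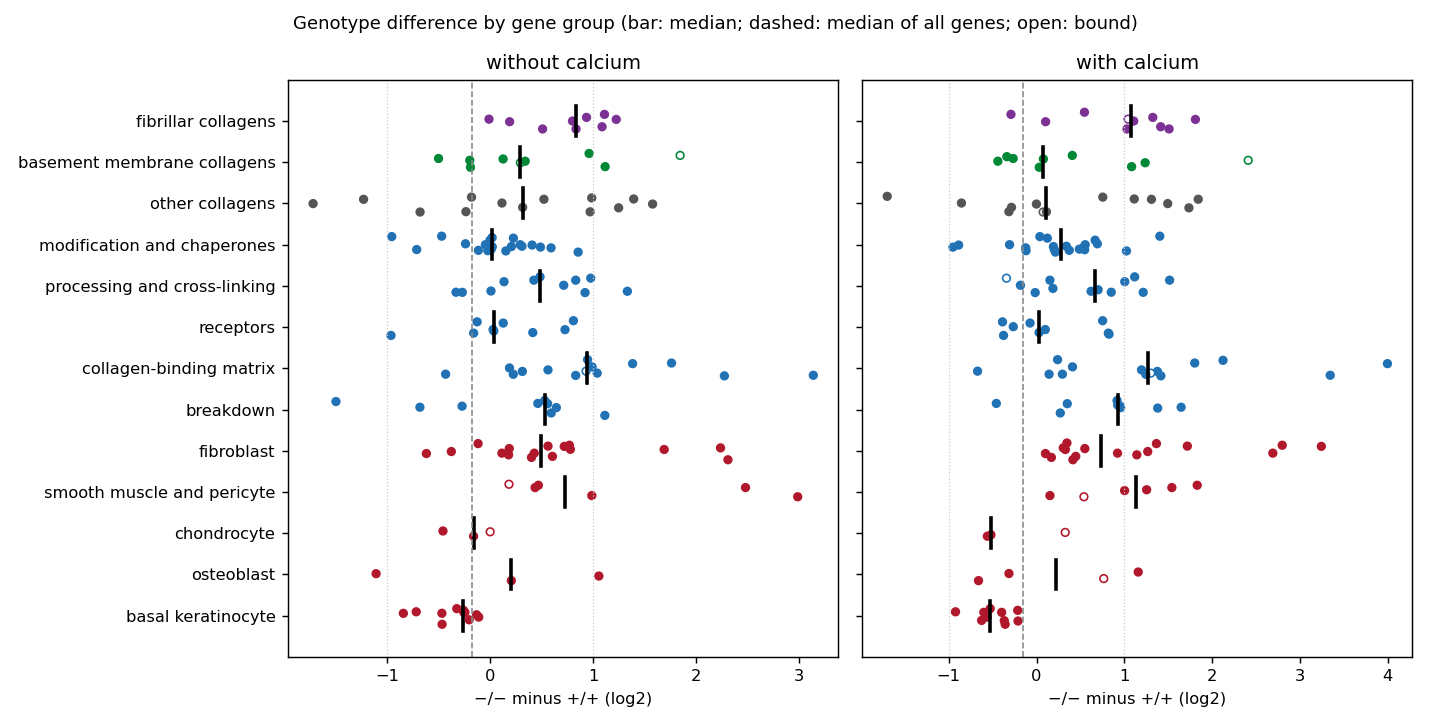
The -/- minus +/+ difference (log2) of each gene in the collagen groups, the lists of related genes and 5 marker lists, without calcium on the left and with calcium on the right. Black bars are medians and the dashed line is the median of all genes. The collagen-binding matrix list has medians of 0.94 and 1.27, and the basal keratinocyte list -0.26 and -0.53.

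Markers of the cells that could share a whole-skin culture were read beside these values. All 11 basal keratinocyte markers were well above background on every array, among them Krt5 at 7.22 and 7.29 in +/+ cells and 7.01 and 6.72 in -/- cells. All 16 fibroblast markers, none of them a collagen gene, were also well above background on every array. Their summed level was 78.6 times the 75th percentile without and 65.9 times with calcium in +/+ cells, and 112 and 108 times in -/- cells. Their median genotype difference was 0.49 without calcium, with 13 of 16 above 0 and 3 at least 2-fold higher. With calcium it was 0.74, with 16 of 16 above 0 and 7 at least 2-fold higher. Of all genes, 6638 of 21346 lay above 0 without calcium and 7912 of 21565 with calcium. The shares at least 2-fold higher were 4.65% and 6.56%. Among the fibroblast markers Dlk1, Eln and Mfap4 had the highest values. The 11 basal keratinocyte markers were all lower in -/- cells, with medians of -0.26 and -0.53. Their summed level was 479 and 434 in +/+ and 388 and 306 in -/- cells. Of all genes, 14411 of 21346 were below 0 without calcium and 13595 of 21565 with calcium. Smooth muscle and pericyte markers had medians of 0.73 and 1.13 over 6 of 7 genes, with summed levels of 7.16 and 11.1 in +/+ and 23.8 and 21.1 in -/- cells. Adipocyte markers had medians of 2.95 and 3.15 (7 of 7 at least 2-fold higher), mast cell markers 3.57 and 4.14 (6 of 6) and myeloid markers 1.89 and 3.07 (5 of 7). These counts held in both states, beside the same 4.65% and 6.56% of all genes. Endothelial markers had medians of -0.50 and -0.73, with all those compared below 0. Schwann cell markers had 0.68 and 0.38 but were split, with 4 above and 2 below 0 without calcium and 3 and 3 with calcium. Skeletal muscle markers had 1.45 and 1.02, with 3 above and 2 below 0 in each state, down to -0.97 and -0.69. Osteoblast markers had 0.21 over 3 of 6 genes and 0.23 over 4, with values from -1.11 to 1.06 without calcium. The 0.23 includes 1 bound, and the measured genes alone gave -0.31. Chondrocyte markers had -0.16 and -0.52 over 3 of 7 genes, 1 of them a bound in each state. The part of these shifts in the collagen differences was not tested.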

How the data were processed

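Single-colour Agilent arrays measured total RNA from cultured keratinocytes in 4 groups of 1 array. The deposited scanner signal is an intensity in the authors' files from Agilent Feature Extraction 11.5.1.1 (named in the submitters' processing notes), background-subtracted within each array, per the file headers. The authors' deposited value table is a ratio of each signal to 1 constant per array, which held over spots to within 2.31e-07 in relative terms. The constants were 2638.22 and 2738 for +/+ cells without and with calcium, and 2890.93 and 3300.84 for -/- cells. They lay close to the 75th percentiles used here, which were 2637.91, 2737.31, 2889.25 and 3299.46 in the same order. Here outlier spots (105 to 116 per array) were left out, signals were taken as log2, and the 75th percentile over 43020 non-control spots (2638 to 3299 intensity units) was subtracted. The brightest probe stood for a gene. Of 39429 probes, 27508 were named through their accession and 11921 by the file.

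Comparisons needed a signal well above background on 1 array or both, and on all 4 for the difference between responses. On a dim array the bound used the gene's own value or, if higher, the array's lowest signal well above background. No test was possible with 1 array per group. The number of arrays limits the precision. The steps were tested on simulated data.

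The members and lists were chosen with earlier results of these data known. Values were given for collagen genes well above background on all 4 arrays and at least 2-fold different in a comparison, and for 12 collagen genes picked by role. Of the related lists, up to 4 genes with the largest genotype difference without calcium and genes at least 2-fold different with calcium against without are named. Other genes, among them Col2a1, Col4a5, Col4a6, Col11a1, Col15a1, P3h3, Loxl2, and Dlk1, Eln and Mfap4, were named after their values were seen. Alternatives covered background correction (normexp, offset 50), quantile scaling, scaling to detected probes or basal keratinocyte genes, averaged probes, the authors' value table, stricter and no filters, a 3-fold threshold, and 2 treatments of flagged spots chosen after seeing the data. Collagen protein sequences were not analysed here. Tools were R 4.3.3 with limma 3.58.1 for normexp, and matplotlib 3.10.9, pandas 2.3.3 and numpy 2.4.6 under Python 3.11.15.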

Additional observations from a re-analysis of the deposited data

How the results depend on the processing

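Of 105 alternative values for the collagen medians and counts, 87 stayed within the scanner error of the value or within 1.5 times the count, and 18 moved. Scaling to basal keratinocyte genes shifted the median of all genes by 0.25 (genotype without calcium), 0.56 (genotype with calcium), 0.34 (calcium in +/+ cells) and 0.64 (calcium in -/- cells). Under it the collagen medians became 0.77, 1.21, 0.18 and 0.71. The median of the difference between responses became 0.43, and 1 collagen gene passed 2-fold there, beside 942 higher and 58 lower of all 19227 genes. The split of collagen genes without calcium was then 14 higher and 1 lower, against 8 and 2. Over all 21346 genes it was 1429 and 375. The split of the calcium response of -/- cells was 3 and 0, against 1 and 1. Over all 21428 genes it was 3109 and 19. Quantile scaling gave 10 and 2 without calcium, and over all genes 1160 higher and 399 lower against 992 and 922. Normexp correction gave a median of 0.41 for genotype with calcium, and 1 gene past 2-fold for calcium in -/- cells. For that response it put 319 of all 21431 genes higher and 26 lower. With no filter the genotype medians were 0.19 and 0.42. The split without calcium was then 8 and 6, beside 1332 and 2982 of all 30341 genes. For calcium in +/+ cells 5 collagen genes passed 2-fold, beside 886 higher and 1097 lower of all 30342 genes. For the difference between responses 4 did, beside 3098 higher and 746 lower of all 30340 genes. The authors' value table, and keeping flagged spots, each gave 1 collagen gene for this difference, beside 367 higher and 121 lower of 19228 genes. That gene was Col1a1, whose flagged spot both keep. With the spot kept, its calcium response was 5.74 in -/- and -0.07 in +/+ cells. At 3-fold the counts were 2 and 5 between genotypes and 0 and 0 for calcium, and the shares of all genes at 3-fold are not given here. The median of the other collagens without calcium, 0.32, reversed to -0.080 with averaged probes and to -0.21 with no filter. Apart from the Col1a1 spot, the cause of these shifts was not tested. Differences of at least 2-fold, in collagen genes detected on all 4 arrays and in Col1a1, stayed so under every alternative run with the 2-fold threshold, except Col8a1 without calcium (-0.97 at the least) and Col23a1 with calcium (0.95). Low signal limits Col4a3, Col8a2, Col11a1 and Col15a1, each not well above background on at least 1 array. No paired analysis was possible because each group is 1 array and the result comes from no test.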

Other observations

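The array lists the gene now called Col26a1 under its older name Emid2, which the naming rule does not reach. Its level was 1.04 without and 1.22 with calcium in +/+ cells, and 0.75 and 0.73 in -/- cells, well above background on every array.

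Neighbouring collagen genes elsewhere in the genome can be read side by side from the same tables. In RefSeq GRCm38, Col3a1 and Col5a2 lie 24624 bases apart on chromosome 1, and their genotype differences were 1.11 and 0.94 without calcium and 1.51 and 1.81 with calcium. Col6a1 and Col6a2 lie 85161 bases apart on chromosome 10, with 0.99 and 1.39 without calcium and 1.11 and 1.73 with calcium. Where several probes of a collagen gene were measured, they had the same sign for 6 of 10 genes in the genotype comparison without calcium and for 7 of 8 with calcium. The genes with mixed signs were Col4a4, Col8a2, Col16a1 and Col20a1 without calcium and Col23a1 with calcium. Probes dim on an array of the pair, such as the second Col9a1 probe, did not enter these counts. For the calcium response the sign was the same for 6 of 8 genes in +/+ cells, except Col14a1 and Col23a1, and for 8 of 12 in -/- cells, except Col4a4, Col4a6, Col8a2 and Col15a1.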
